A study of Mus musculus with 4 samples.

Results

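Histones are the proteins around which DNA is wound in the nucleus, and 48 of the 5807 genes in the deposited comparison of pleural cavity and bone marrow eosinophils are histone genes. The 5807 are the genes that the study called different between the tissues, by p-value and by more than 2-fold in its own comparison. By its call most of them were lower in the pleural cavity, and a gene it did not call is not listed. The 48 were chosen by symbol alone, and all that are listed were kept. Their symbols begin with Hist and a digit or with H1f, H2af, H2ac, H2bc, H3f, H3c or H4c. The eosinophils were sorted from wild-type mice at day 2 after injection of LLC cells, a Lewis lung carcinoma line, into the pleural cavity, either from bone marrow (2 libraries, labelled WT_LLC_BM) or from pleural lavage fluid (2 libraries, labelled WT_LLC_MPE). By the labels and the methods both groups came from tumor-injected wild-type animals, although the study's text also calls the bone marrow eosinophils naïve. The methods describe all mice as young adults of 1 age range, and the labels give neither age nor how many mice went into a library. Sorting differed between the tissues. Bone marrow cells were first enriched on beads for F4/80 and pleural cavity cells for CD45, and both were then gated on live SiglecF+ cells of high side scatter. The gate required CD45 in bone marrow, and in the pleural cavity it required CD11b and F4/80 and excluded CD11c+ and Gr1-high cells. The deposited values are 1 mean of estimated reads per gene and tissue, so the spread between libraries is unknown and no test could be made. Differences are therefore described by their size, and whether both libraries of a tissue show them is unknown.

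The listed genes sum to 15947438 mean reads in the pleural cavity column and 11762543 in the bone marrow column, which is not the depth of a library. Mean reads were divided by these totals, and a ratio below is that of the 2 tissues in reads per 1000000 listed reads (RPM). Where a tissue had a mean of 3 reads or fewer it was set to 3, and the ratio is then a bound. In each pair of values below, the pleural cavity comes first and bone marrow second. Of 11 eosinophil markers 10 were listed, of which 7 were lower and 3 higher by more than 2-fold in the pleural cavity, and together they held 0.812% against 9.57% of the listed reads. Siglecf and Ccr3, the sorting antigen and the eotaxin receptor, had reads in both tissues, 21371 and 67556.5 mean reads in pleural cavity against 7105.5 and 17177.5 in bone marrow, whereas the granule genes Epx and Prg2 had 341.5 against 139062 and 1482 against 555404. All 13 markers of neutrophils and granulocyte precursors were listed and lower in pleural cavity, where they held 0.229% of the listed reads against 11.7% in bone marrow. Most of their 36566 mean reads in the pleural cavity were those of Retnlg, with 33927 and a log2 ratio of -2.55. The next smallest difference was that of Prtn3, with a log2 ratio of -7.44. None of the 13 was at 0 in the pleural cavity, the lowest being Ly6g with 5 mean reads. Of the 6 basophil and mast cell markers all 6 were lower, with 0.00109% against 0.0968% of the listed reads. Among all listed genes, 50.5% were lower by more than 2-fold, and 930 of the 5807 were higher by more than 2-fold. Macrophage markers did not share a direction, with 6 of 9 listed, of which 3 were higher and 1 lower by more than 2-fold. The erythroid marker Klf1 had 1.5 against 163 mean reads. Listed too were Nkg7 and Cd3d of 7 T and NK cell markers, with 112 against 10432 and 32 against 123 mean reads, Ms4a1 of 6 B cell markers, with 366 against 107, and Krt18 of 6 mesothelial and epithelial markers, with 1918 against 518. The part of these cells in the histone reads was not tested. In bulk RNA, fewer cells of a type and less RNA per cell cannot be told apart.

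Nucleosomes hold the core histones H2A, H2B, H3 and H4, and the linker histone H1 binds the DNA between them. Canonical core histones and most H1 proteins come from many near-identical, mostly intronless genes in clusters, which are transcribed in S phase to package newly made DNA. Their transcripts usually end in a short stem-loop, bound by the protein SLBP, in place of a poly(A) tail. Some of these genes also make longer, polyadenylated transcripts, in particular in cells that have stopped dividing. Variant histones such as H2A.Z and macroH2A come from only a few genes each and are mostly made throughout the cell cycle as polyadenylated transcripts.

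All listed members were counted here as canonical genes, by symbol and position in the clusters. Whether each is made in S phase was not examined. H2bc21, for example, has an annotated transcript without the stem-loop and with a poly(A) signal near its end. The current symbols of the variants (H2az1, H2ax, Macroh2a1) do not begin as the rule asks, and the variants that do, such as H1f0, H3f3a and H3f3b, were not listed, so variants are given below as a comparison. In the RefSeq annotation of GRCm38.p6, 71 protein-coding genes have symbols of the rule, and 23 of them are not listed, which gives them no direction. The 48 comprised 5 H1, 12 H2A, 13 H2B, 11 H3 and 7 H4 genes. On GRCm38, 42 of them lie on chromosome 13 between positions 21715711 and 23764412, and the other 6 on chromosome 3 between 96220413 and 96270192. In the GENCODE M21 annotation of the same assembly, 45 of the 48 had a longest coding transcript of 1 exon. The 7 H4 genes encode a single protein of 103 residues, and 9 of the 12 H2A genes encode the same protein. Where transcripts are also alike in bases, which was compared for only a few pairs, reads are hard to assign within a family.

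The stem-loop is shown because it is what marks these transcripts. A 16-base motif was searched on the transcript strand (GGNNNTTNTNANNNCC, with both 6-base arms required to pair), and 32 of the 48 longest coding transcripts held it. The sequences are taken from GENCODE M21 transcripts as DNA letters, and capitals mark the loop of 4 bases.

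H1f2, H2ac23, H2ac24, H2ac8, H2bc8 and 14 further members: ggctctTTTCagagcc
H2bc3, H2bc12, H3c3, H3c6 and H3c7: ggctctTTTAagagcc
H4c3, H4c4, H4c8 and H4c18: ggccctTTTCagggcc
H4c9 and H4c14: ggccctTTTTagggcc
H2ac20: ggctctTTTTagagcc
H3c8: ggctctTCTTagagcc

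The stem was the same in the H1, H2A, H2B and H3 transcripts, and the H4 transcripts carried another. Of the remaining 16 members without the motif, 9 have models that hold the coding sequence alone, so their ends could not be examined.

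All 48 genes were lower in pleural cavity eosinophils. Of the 48, 47 were lower by more than 2-fold, as were 50.5% of all listed genes, and 38 by more than 10-fold, as were 19.5% of all listed genes. The median log2 ratio of the members was -4.31 with bounds included, which corresponds to 19.8-fold, and that of all listed genes was -1.02. With a floor of 10 mean reads in place of 3, the median of the members was -3.18. In the pleural cavity, 21 members had a mean of 3 reads or fewer, as did 17.9% of all listed genes, and 6 members had 0. A gene with so few reads in the pleural cavity can hardly be listed unless it was higher in bone marrow, so these counts describe the list and do not support a direction. The counts of lower genes are likewise taken from genes that the study had already called different, most of them lower in the pleural cavity.

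Summed over members, which depends less on how reads are divided among similar genes, the histone genes had 3224 mean reads in the pleural cavity against 23223 in bone marrow eosinophils. This is 0.0202% and 0.197% of the listed reads, a 9.77-fold difference. H2ac23 and H2ac24 held 72.4% of the bone marrow reads and 67.6% of the pleural cavity reads. Without this pair the sums were 65.4 and 546 RPM, an 8.34-fold difference.

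**Figure D1:**
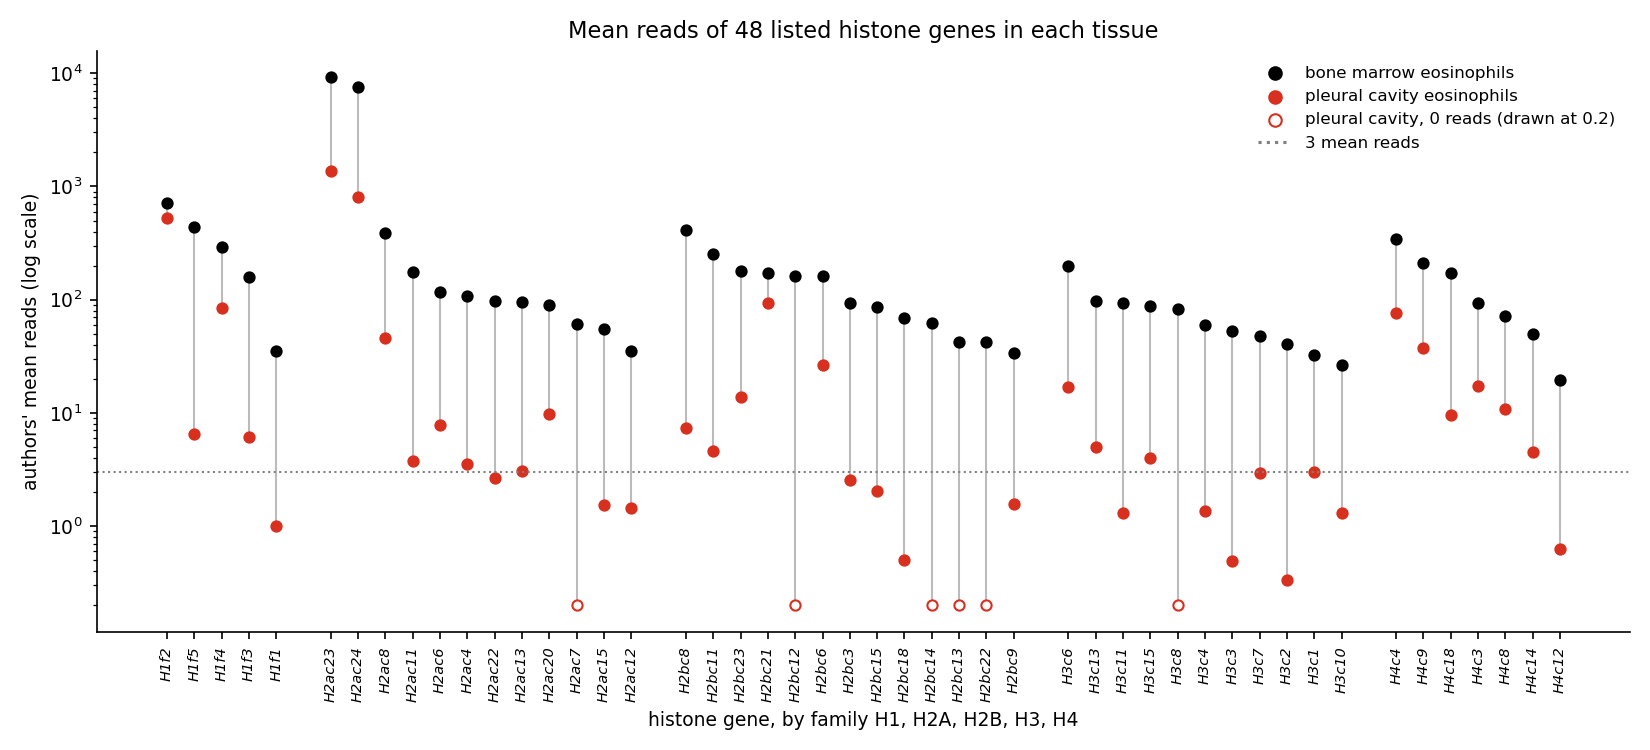
Authors' mean reads (log axis) of the 48 histone genes in bone marrow (black) and pleural cavity eosinophils (red), joined by a line for each gene and grouped by family; the 6 genes at 0 in the pleural cavity are drawn as open circles at 0.2. Each red point lies under its black point, the gap being smallest for H1f2, and the dotted line marks 3 mean reads, which 21 of the red points do not exceed.

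Linker histones spanned the widest range. H1f2, which encodes histone H1.2, had 521.675 mean reads in the pleural cavity against 720.45 in bone marrow, a log2 ratio of -0.90, and was the only member within 2-fold. H1f4, which encodes H1.4, had 83.67 and 289.895 mean reads and a log2 ratio of -2.23. H1f3 had 6.155 against 159.155 mean reads, which is 35.1-fold lower. H1f5, which encodes H1.5, had 6.5 against 440.5 mean reads, with no sign of reads divided between genes, and its log2 ratio of -6.52 was the lowest of the 27 members with a value in place of a bound. H1f1 had 1 against 35 mean reads and was at least 15.8-fold lower. In bone marrow eosinophils H1f2 and H1f5 thus had reads of the same order. In the pleural cavity H1f2 held 84.3% of the reads of the listed H1 genes. Summed, the listed H1 genes were 3.60-fold lower, from 140 to 38.8 RPM. Some H1 genes, H1f0 and H1f10 among them, were not listed and are in neither the share nor the sum.

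H2A and H2B form a dimer in the nucleosome and their genes often lie side by side. H2ac23 had 1370.12 mean reads in the pleural cavity against 9240.95 in bone marrow, a log2 ratio of -3.19. H2ac24 had 810.27 and 7561.98 mean reads, a log2 ratio of -3.66. Their transcripts are identical over 452 aligned bases, so the reads of this pair are better given as a sum. Per kilobase of the longest coding transcript, they reached 1637 and 1334 RPM in bone marrow, while the median of the 48 members was 12.8 and the next member, H2bc8, stood at 56.5. The other 10 H2A genes had from 35.18 to 390.895 mean reads in bone marrow and from 0 to 45.9 in the pleural cavity. Of these, H2ac8 had 45.9 against 390.895 mean reads and H2ac11 had 3.76 against 174.435, which are 11.5-fold and 62.9-fold lower. H2ac7 was at 0 against 60.77 and at least 27.5-fold lower.

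The H2B members were 15.8-fold lower in sum, with 152 against 1771 mean reads. H2bc8, with most bone marrow reads of the family, had 7.42 against 410.39 mean reads and was 75.0-fold lower. H2bc11 had 4.585 against 251.385 and was 74.3-fold lower. H2bc12 was at 0 against 163.07, at least 73.7-fold lower, and H2bc13, H2bc14 and H2bc22 were at 0 as well. At the other end, H2bc21 had 93 against 172.5 mean reads, undivided between genes, and a log2 ratio of -1.33. This gene alone held 61.2% of the reads of the H2B members in the pleural cavity and 9.74% in bone marrow. H2bc6 came next with 26.365 against 161.655 mean reads, which is 8.31-fold lower.

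Among members, H3 genes had the fewest reads for their number and the largest difference in sum, 36.5 against 820 mean reads or 30.5-fold. H3c6 had most, with 16.77 against 198.87 mean reads, a log2 ratio of -4.01. Of the 11 H3 genes, 7 had a mean of 3 reads or fewer in the pleural cavity, among them H3c8 at 0 against 82.435 and H3c11 at 1.31 against 93.5. The H4 members were 8.31-fold lower in sum, with 156 against 957 mean reads. H4c4 had 76 against 341.495, H4c9 37.545 against 210.44 and H4c18 9.645 against 171.355 mean reads, so that genes of 1 protein ranged from 6.09-fold to 24.1-fold lower. Of all 48 genes, 43 had means that are not multiples of 0.5, as had 25.8% of all listed genes. This happens when the estimate divides reads between similar genes, so single values within a family are uncertain. The exceptions among the 48 were H1f1, H1f5, H2bc18, H2bc21 and H4c14. H2bc18 had 0.5 against 69 and H4c14 had 4.5 against 49.5 mean reads.

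**Figure D2:**
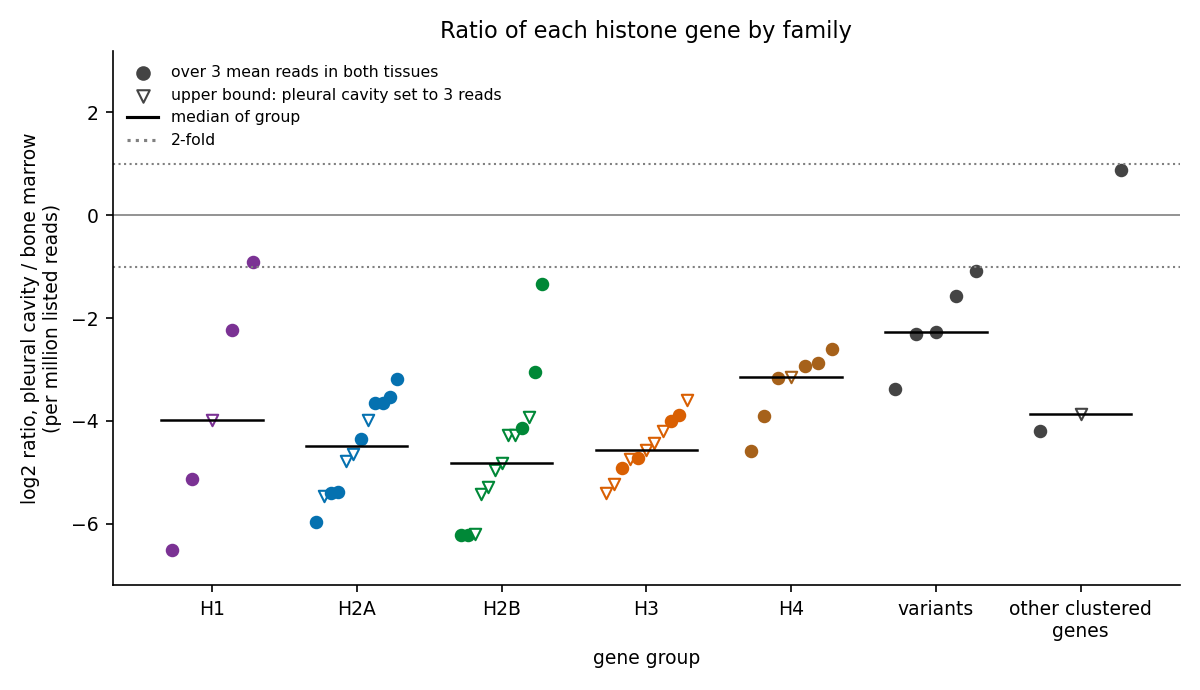
Log2 ratio of pleural cavity over bone marrow eosinophils in RPM (vertical axis) for each gene by family, with 5 listed variants and 3 other listed clustered genes; open triangles are upper bounds and black lines medians. H1 genes spread from -6.52 to -0.90, H4 genes lie between -4.59 and -2.61, and the 5 variants between -3.39 and -1.09.

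The genes were then compared by how their annotated transcripts end, a comparison chosen after their values were seen. A poly(A) signal (AATAAA or ATTAAA, transcript strand) lay in the last 60 bases of the longest coding transcript of 9 members, whose median log2 ratio was -3.17. They include H1f2 and H2bc21, the members with the smallest differences, as well as H2ac8, H2bc6, H2bc22, H2bc23, H4c8, H4c9 and H4c14. In 11 further members the transcript ran more than 100 bases past the stem-loop without such a signal, and the median was -4.35. H1f4, H4c3 and H4c4 of this group were 4.70-fold, 7.38-fold and 6.09-fold lower, whereas H2bc8 was 75.0-fold lower. In 15 members the stem-loop lay within the last 100 bases and no signal was found, with a median of -4.78. The other 13 had neither motif, with a median of -4.72, and 10 of them had a mean of 3 reads or fewer in the pleural cavity. Not past 10-fold were 5 of the 9, 3 of the 11, 1 of the 15 and 1 of the 13, the last being H4c12, whose ratio is a bound. The reads do not tell which end a transcript had, and how mRNA was selected for the libraries is not given in the sources used here.

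**Figure D3:**
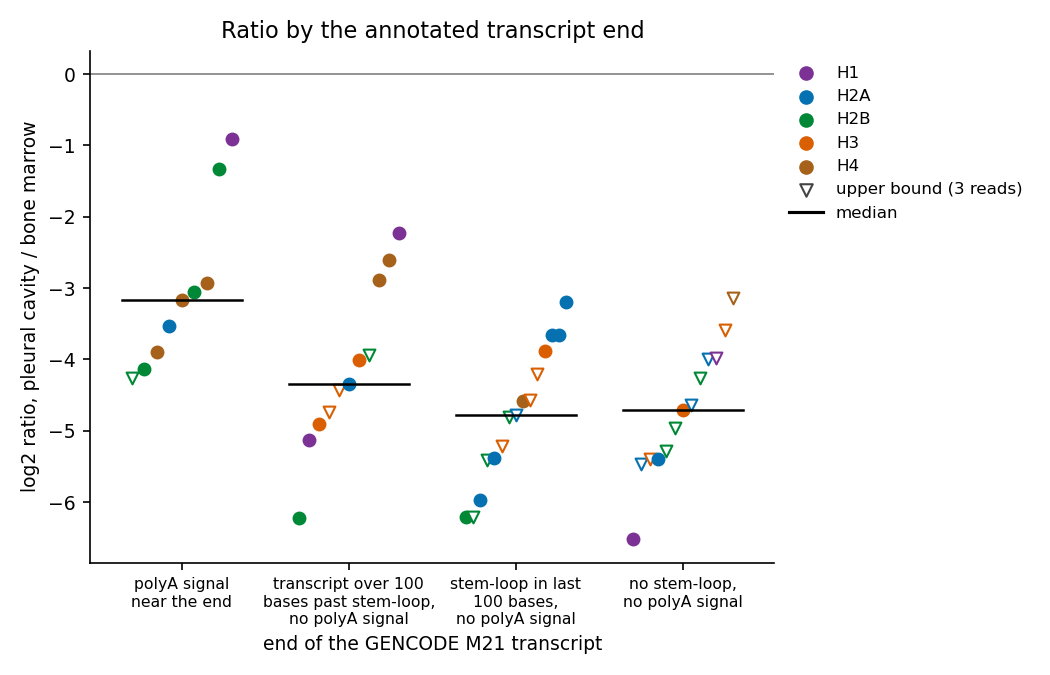
Log2 ratio of each member (vertical axis) by the end of its longest coding GENCODE M21 transcript, with colors for families, open triangles for upper bounds and black lines for medians. The median is -3.17 in the 9 genes with a poly(A) signal and between -4.78 and -4.35 in the other groups, and the groups overlap.

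Members shared promoter elements that the rule did not use. RefSeq promoters of GRCm38.p6, from 250 bases before to 50 after a start site, were matched for 44 of the 48 genes, in 45 windows. CCAAT, searched on both strands, was present in 91.1% of the 45 windows and in 37.4% of 32851 windows of all genes. TATAAA, searched on the gene strand, was found in 46.7% against 8.32%. The octamer ATTTGCAT, bound by Oct1, was found on either strand in 24.4% against 1.74%, namely in 5 of 12 H2A and 6 of 13 H2B windows and in none of H1, H3 or H4. H4 differed, with CCAAT in 2 of 6 windows. A match describes letters and not a bound site, and windows of neighbouring genes overlap.

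The windows shown are those of H2bc8, which also covers the start of H2ac8, and of H1f5 and H1f2, the members with the largest difference given as a value and with the smallest. They lie at chr13:23571150-23571449 on the plus strand, chr13:21780576-21780875 on the minus strand and chr13:23738557-23738856 on the plus strand, and capitals mark CCAAT or its reverse complement, TATAAA and the octamer.

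H2bc8: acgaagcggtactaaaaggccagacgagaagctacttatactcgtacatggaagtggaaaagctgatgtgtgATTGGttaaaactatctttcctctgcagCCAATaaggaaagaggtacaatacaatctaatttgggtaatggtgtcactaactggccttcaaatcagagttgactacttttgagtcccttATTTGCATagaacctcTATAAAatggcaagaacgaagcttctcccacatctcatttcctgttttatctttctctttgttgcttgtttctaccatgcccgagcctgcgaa
H1f5: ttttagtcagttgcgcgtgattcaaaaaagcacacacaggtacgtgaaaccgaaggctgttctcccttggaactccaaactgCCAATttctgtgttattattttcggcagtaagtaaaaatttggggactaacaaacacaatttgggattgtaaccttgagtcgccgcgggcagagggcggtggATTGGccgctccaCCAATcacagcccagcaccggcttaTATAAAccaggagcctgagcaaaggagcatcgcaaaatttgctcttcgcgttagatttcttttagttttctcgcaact
H1f2: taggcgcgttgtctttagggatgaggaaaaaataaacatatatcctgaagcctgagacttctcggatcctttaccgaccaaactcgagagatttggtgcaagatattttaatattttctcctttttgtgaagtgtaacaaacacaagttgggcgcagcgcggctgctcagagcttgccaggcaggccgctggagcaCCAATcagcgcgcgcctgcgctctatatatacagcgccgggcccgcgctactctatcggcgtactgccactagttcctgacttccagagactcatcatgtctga

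The H2bc8 window holds all 3 motifs, that of H1f5 CCAAT and TATAAA, and that of H1f2 CCAAT alone.

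Start sites of 18 members formed 9 divergent pairs less than 1000 bases apart, 8 of them of an H2A with an H2B gene, and the median distance was 192 bases. H2ac8 and H2bc8, whose start sites lie 180 bases apart, had similar mean reads in bone marrow, 390.895 for H2ac8 and 410.39 for H2bc8, but 45.9 and 7.42 in the pleural cavity. Their log2 ratios of -3.53 and -6.23 differ by 2.70. H2ac20 and H2bc21, 192 bases apart on chromosome 3, had log2 ratios of -3.65 and -1.33. In contrast, H2ac11 and H2bc11, 249 bases apart, had -5.97 and -6.22. In 4 of the 9 pairs both genes had more than 3 mean reads in each tissue, so that their ratios are values and not bounds. The fourth of these was H2bc23 and H2ac23, with -4.14 and -3.19. In these means, genes that share a promoter region thus ranged from near-equal to unequal ratios. H2ac11 and H2bc11 had only 3.76 and 4.585 mean reads in the pleural cavity, just over the floor of 3. Their reads, and those of H2ac8, H2bc8, H2ac20, H2bc23 and H2ac23, were divided between similar genes, so these differences are uncertain.

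**Figure D4:**
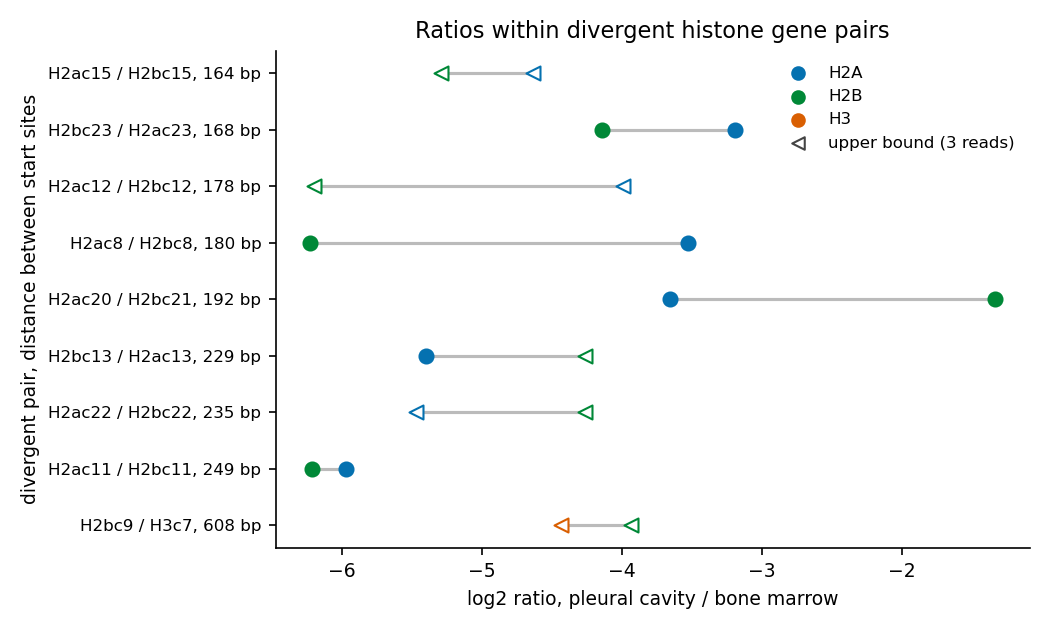
Log2 ratios of the genes in 9 divergent pairs (horizontal axis), 1 pair per row with the distance between start sites; colors mark families and open triangles upper bounds. H2ac11 and H2bc11 lie 0.24 apart, while H2ac8 and H2bc8 lie 2.70 and H2ac20 and H2bc21 2.32 apart.

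Listed variants were lower in the pleural cavity too. H2az1, which encodes H2A.Z.1, a variant found at promoters, had 6254.52 mean reads in the pleural cavity against 22158.1 in bone marrow, a log2 ratio of -2.26. H2az2, which encodes H2A.Z.2, had 2065.5 against 3253 and a log2 ratio of -1.09. H2ax, which encodes the variant phosphorylated at DNA breaks and whose transcript also carries a stem-loop, had 516.88 against 3985.32 and a log2 ratio of -3.39. Macroh2a1 had 1140.5 against 2509 and a log2 ratio of -1.58. Cenpa, the histone H3 of centromeres, had 542 against 1990.5 and a log2 ratio of -2.32. The median of the 5 variants was -2.26 and that of the 48 canonical genes -4.31. The canonical median includes bounds. With 1 mean per tissue this difference was not tested.

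Another 3 canonical genes are listed under symbols outside the rule. The gene listed as H4bc24, which GENCODE M21 names Hist1h2br, an H2B gene, had 13.945 against 189.15 mean reads. Its transcript is identical to that of the member H2bc23 over 1254 aligned bases, so the sums of members depend on how reads were divided between them. H4f16 had 1 against 32.5. H2aw, named Hist3h2a in GENCODE M21, lies on chromosome 11 from 58954685 to 58955192 on GRCm38. Its mean reads were 271.71 in the pleural cavity against 108.35 in bone marrow, a log2 ratio of 0.89, and was the only histone gene examined here that was higher in the pleural cavity. Its annotated transcript runs 1643 bases past the stem-loop and has a poly(A) signal near its end.

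To set the histone genes beside DNA replication, 31 genes of S phase were examined. All 31 were listed and lower by more than 2-fold in the pleural cavity, as were 50.5% of all listed genes. Their median log2 ratio was -3.78. Rrm2, which makes deoxynucleotides, had 101.5 against 4290.5 mean reads. Mcm5, part of the replicative helicase, had 223 against 3794 and Mki67, a marker of cycling cells, had 429 against 3767. Pcna, the sliding clamp, differed less, with 1383.5 against 2754.5. Of 33 genes for histone chaperones and deposition, 17 were listed. Of these, 15 were lower by more than 2-fold, beside 50.5% of all listed genes, and 2 were within 2-fold. This list also holds Cenpa, given above, and Mcm2, which is counted among the S phase genes too. The lowest ratios were those of Chaf1a, a subunit of the replication-coupled CAF-1 chaperone, with 38 against 1132 mean reads, and of Asf1b, which hands H3 and H4 to it, with 125 against 2507. The 2 within 2-fold, Cabin1 (log2 ratio 0.40) and Ino80 (0.56), had more reads in the pleural cavity. Of 17 genes for making histone mRNA, 3 were listed. Lsm10, part of the U7 particle that cuts histone transcripts, had 2140.5 against 803.5 mean reads and a log2 ratio of 0.97. Srrt and Ncbp1, both of the cap-binding machinery, had 650 against 1919.5 and 702.59 against 1118.81 mean reads. Slbp, Npat and Casp8ap2 were among the 14 not listed.

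**Figure D5:**
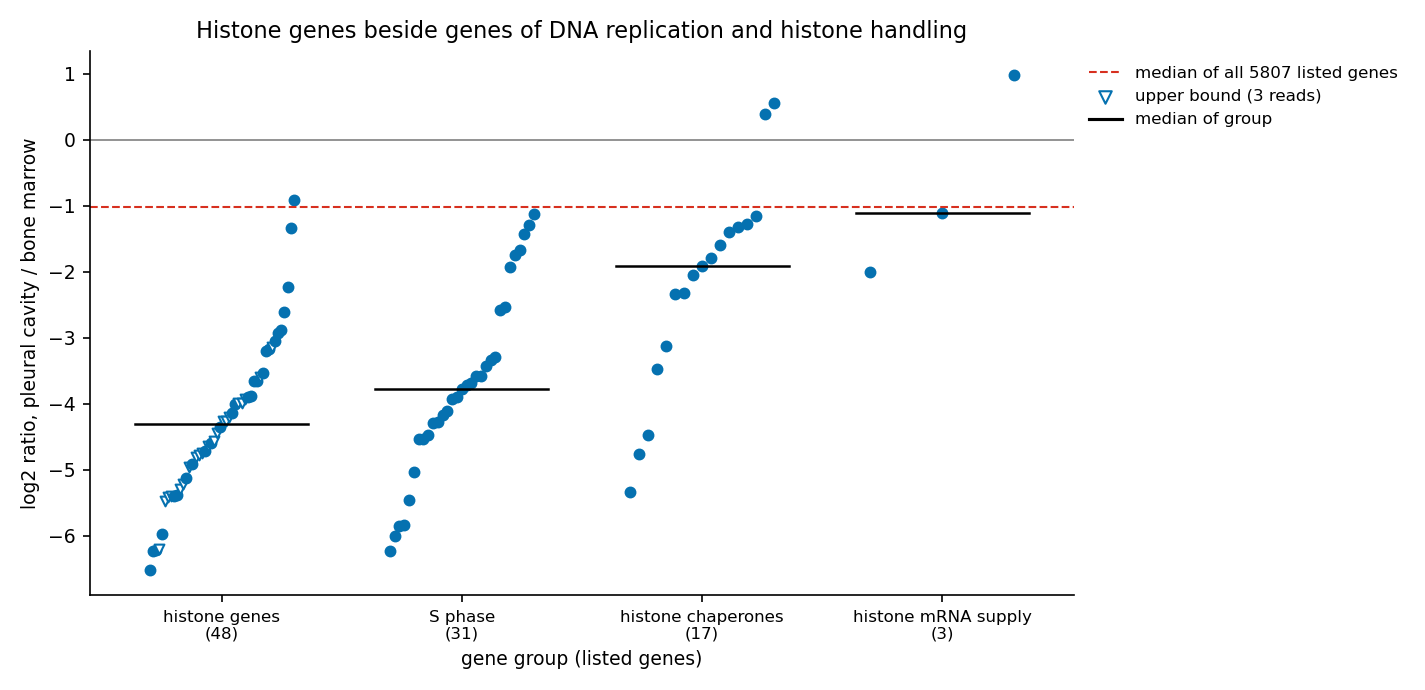
Log2 ratio of pleural cavity over bone marrow eosinophils (vertical axis) for the 48 histone genes, 31 S phase genes, 17 chaperone genes and 3 histone mRNA genes that are listed; open triangles are upper bounds, black lines medians, and the dashed line is the median of all listed genes, -1.02. Medians of the first 2 groups are -4.31 and -3.78, and that of the histone genes is -3.18 with a floor of 10 mean reads.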

How the data were processed

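RNA of sorted eosinophils was sequenced as paired reads of 100 bp, with 2 libraries for each tissue. Per the methods and the submitters' processing notes, the authors used HISAT2 2.1.0 for alignment to GRCm38, Bowtie2 2.2.5 for mapping to genes and RSEM 1.2.8 for read estimates, and compared tissues with DESeq2. The deposited values used here are expected counts that the authors averaged over the libraries of a tissue, unscaled for depth. Counts that are not multiples of 0.5 mark genes among which RSEM divided reads. The columns with fold changes, p-values and q-values of the authors' comparison were not used. Scaled to the totals of listed reads, 1942 of the 5807 listed genes lie within 2-fold.

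Ratios, floors and sums were computed from these means with Python 3.11.15, pandas 2.3.3 and Biopython 1.88. On simulated data, ratios were checked only with the alternative scalings by a median of ratios and by genes well covered in both tissues. The scaling to listed reads and the sums were not checked in this way. No column held a single library, so no test, error or depth could be given. Tissues were taken from sample titles. All 48 members matched RefSeq and GENCODE M21 entries by identifier. GENCODE M21 is an earlier release than the authors' on the same assembly. Every member could be named, with values in full for the leading genes of each family and for listed variants. Members, gene lists and comparisons were chosen with earlier results of these data known. Alternatives covered scaling, floor, fold and members. The result of another erythroid marker is not reported here.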

Additional observations from a re-analysis of the deposited data

How the results depend on the processing

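All 48 histone genes were lower in the pleural cavity under each of the 5 scalings tried. Against the totals of listed reads, leaving mean reads unscaled shifts every log2 ratio by 0.44, a median of ratios by 0.69, centring on 1524 genes that reach 1000 mean reads in both columns by -0.44, and leaving the 145 genes that rank in the top 100 of either tissue out of the totals by -0.15. In this order, 46, 46, 48 and 48 members were lower past 2-fold, the share of all listed genes lower past 2-fold was 43.2%, 39.8%, 57.3% and 53.4% (50.5% as reported), the median log2 ratio of canonical genes was -3.87, -3.62, -4.75 and -4.46, and that of the variants was -1.82, -1.57, -2.71 and -2.42. The log2 ratio of H1f2 ranged from -1.35 to -0.21, that of H2bc21 from -1.77 to -0.64 and that of H2aw from 0.44 to 1.58. A floor of 10 mean reads moved the canonical median to -3.18, since more genes become bounds. The 5 members whose means are multiples of 0.5 were all lower past 2-fold, with a median of -3.98, and 3 such variants had -1.58. These 5 held 0.000662% of the listed reads in the pleural cavity against 0.00652% in bone marrow. Without the highest 145 genes in the totals, the 48 genes held 0.0337% and 0.366%, and without H2ac23 and H2ac24, an alternative chosen after seeing the data, 0.00654% and 0.0546%. A fold of 4 left 46 members, but the share of all listed genes lower past this fold was not computed. No paired analysis was possible because the table holds 1 mean per tissue and no replicate numbers, and for the same reason no library could be left out. Few reads limit the 21 bounds.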

Other observations

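Genes for high mobility group proteins, which bind nucleosomes or bend DNA, were examined after their values were seen. All 5 listed Hmga, Hmgb and Hmgn genes were lower by more than 2-fold in pleural cavity eosinophils, as were 50.5% of all listed genes. How many genes of these families are not listed was not examined. Hmgn2, a nucleosome-binding protein that loosens chromatin, had 10798.5 mean reads in the pleural cavity against 70778.5 in bone marrow, a log2 ratio of -3.15. Hmgb2 had 6660.5 against 21262.5 and a log2 ratio of -2.11. Hmgb3, with 202 against 1295.5, and Hmga1, with 306 against 2293.18 and divided reads, had log2 ratios of -3.12 and -3.34. Hmgn5 had the smallest difference, with 195 against 428 mean reads and a log2 ratio of -1.57.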
